A study of Arabidopsis thaliana with 6 samples.

Results

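Rosette gene expression in high light was set against that in medium light, within each of 2 CO2 levels, in the laboratory accession Col-0 of Arabidopsis thaliana. The arrays were taken by their titles: 2 are titled high light and 2 medium light, 4 of the 6 in the series, and the other two are titled low light. Each of these pairs has 1 array in ambient CO2 and 1 in high CO2, so no combination of light and CO2 was replicated. Total RNA was taken from rosette centres of plants grown in compost with the insecticide Intercept, at 21 degrees C in days of 10 h of light followed by 14 h of darkness, and was measured on the ATH1 array, which reports 1 signal for each probe set of short oligonucleotides. All groups share these conditions. Light intensities, CO2 concentrations and the number of plants behind each sample are not given in the sources used. Labels of the array titled high light and high CO2 conflict, since the atmosphere entry says that the air was normal. Its title decided its group here. Where leaving it out ended or made a call for a tested member of the gene lists below, both values are given. Other genes were not all examined in this way.

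Light is both the energy source of a leaf and a signal to it. In stronger light leaves are known to make less light-harvesting antenna, to adjust the enzymes of carbon fixation and starch turnover, and to make red anthocyanin pigments that shield the tissue, while genes of shade growth and cell elongation are held down. High CO2 lowers photorespiration, the salvage pathway that starts when Rubisco takes up oxygen in place of CO2.

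Of 22810 probe sets on the array, 64 are controls and 13295 had a mean signal of at least 30 over the 4 arrays and were tested, 7181 of them with 1 gene in the annotation used here. Each array had a trimmed mean signal of 100 over all probe sets, and the median signals of the 6 arrays lay between 40.7 and 43.2. A difference passed where its adjusted p from limma, with light level and CO2 level as terms, was under 0.05. Of those tested, 132 probe sets passed, a share of 0.993%. In high light 72 were higher (0.542%) and 60 were lower (0.451%). All 132 had the same sign at both CO2 levels, 108 of them differed by at least 2-fold, and in 128 the high-light and medium-light signals did not overlap. The spread used in the test includes disagreement between the CO2 levels. The shared sign and the lack of overlap thus follow largely from passing and are not further support. Over every probe set tested, the signals of the pairs did not overlap in 6204 (46.7%), and 415 (3.12%) differed by at least 2-fold. The median log2 difference over all of them was -0.02. The count of calls was 4 without the medium-light ambient array, 376 without the medium-light high-CO2 array and 895 with the high-light high-CO2 array left out. It was 0 in a fit without the trend of spread on signal, with 1946 probe sets at an unadjusted p under 0.05 against 2284 as reported, and 9 with no filter on signal.

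**Figure D1:**
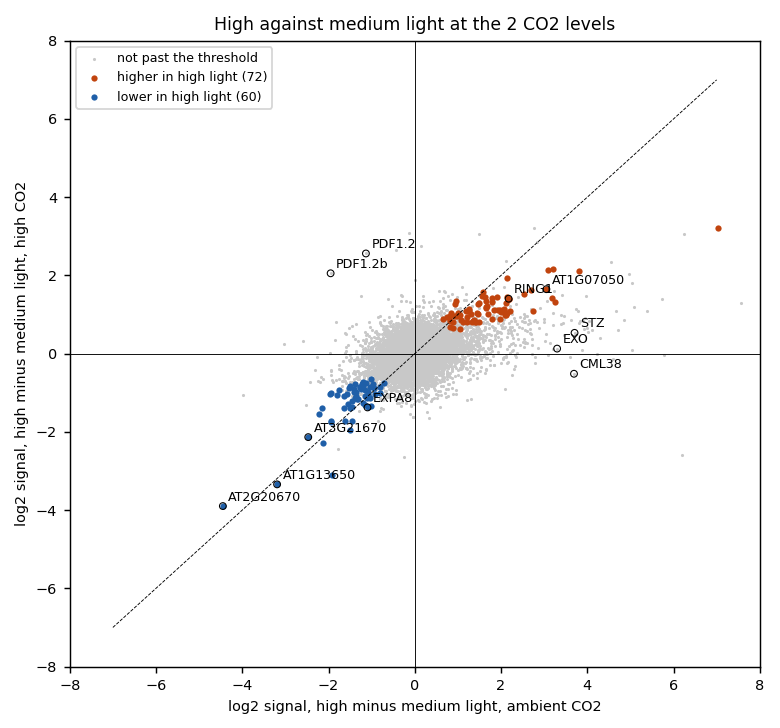
Each point is 1 of 13295 probe sets, with the log2 difference between high and medium light in ambient CO2 on the horizontal axis and in high CO2 on the vertical axis, and the dashed line marks equal differences. The 72 probe sets higher in high light (orange) and the 60 lower (blue) lie in the upper right and lower left, and some genes such as STZ and EXO lie far out along the ambient axis only.

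Among the 132 probe sets, 43 carry 1 gene, 88 are unnamed here and 1 is assigned to several genes. Of these 43 genes, 25 rose and 18 fell in high light. The gene table gives most of them a locus name only, and no role is given for those. In bulk tissue fewer cells of a type and less RNA per cell cannot be told apart.

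RING1, a ubiquitin ligase of the plasma membrane linked to programmed cell death, was among the genes that rose. Its signals were 83.1 in medium and 375.5 in high light in ambient CO2, then 166.3 and 440.3 in high CO2. Both high-light arrays lay above both medium-light arrays, and the low-light arrays lay below all of them, at 54.9 and 77.0. The mean difference was 3.46-fold (log2 1.79 ± 0.20 SE, adjusted p = 0.0193). SCPL49, a serine carboxypeptidase-like protein, read 197.2 and 682.1 in ambient CO2, then 281.9 and 698.0 in high CO2, in the same order of medium and high light. Its high-light signals were nearly equal at the 2 CO2 levels and far above the rest, low light included. It rose 2.93-fold (log2 1.55 ± 0.15, adjusted p = 0.0189).

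Of the genes with a name that passed, AT1G07050 had the largest rise, from 22.1 to 183.3 in ambient CO2 and from 84.6 to 265.1 in high CO2 (log2 2.35 ± 0.32, adjusted p = 0.0276). AT5G24210 went from 16.7 to 151.4 and from 43.0 to 114.7 (log2 2.30 ± 0.38, adjusted p = 0.0404). For both genes the medium-light ambient array, the lowest of the 4, was under 30, where array signals are noisy on a log scale, so the sizes of these rises are not firm. AT1G19960 read 163.1 and 715.5 in ambient CO2, then 362.3 and 741.2 in high CO2. The low-light arrays, at 681.8 and 673.3, were nearly as high as the high-light arrays, so the medium-light arrays were the low ones of the 6. The difference between high and medium light of AT1G19960 was log2 1.58 ± 0.27 (adjusted p = 0.0458), and 1.02 without the medium-light ambient array (adjusted p = 0.179).

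The other rises named by the rule were AT4G38550, AT3G09830, AT4G20830, AT1G26665, AT4G08850, AT5G51570 and AT3G04210, with log2 differences between 1.18 and 1.65. AT3G09830 differed by the same amount at both CO2 levels, from 36.1 to 107.8 and from 39.7 to 118.3. AT4G08850 was higher in high CO2 in both lights, from 60.8 to 194.7 in ambient and from 128.4 to 299.2 in high CO2. In these 7 genes the high-light signals stood above the medium-light signals on all 4 arrays. Outside the naming rule, and chosen after their values were seen because they carry a symbol, 3 more genes that rose were PME61, THIC and EXLB1. PME61, a pectin methylesterase of the cell wall, read 143.6 and 360.2 in ambient CO2, then 147.1 and 257.7 in high CO2 (log2 1.07 ± 0.17, adjusted p = 0.0392). THIC, which makes the pyrimidine part of vitamin B1 in the chloroplast, read 574.7 and 1065.5, then 864.5 and 1358.0 (log2 0.77 ± 0.13, adjusted p = 0.0404). In both genes high light was above medium light at each CO2 level. EXLB1, an expansin-like protein, read 103.8 and 192.1, then 110.4 and 194.5 (log2 0.85 ± 0.14, adjusted p = 0.0461). Its low-light signals, 183.9 and 170.5, were near those in high light, so its medium-light arrays were the low ones.

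Of the genes that fell, AT2G20670 had the largest difference. Its signals fell from 148.6 in medium to 6.8 in high light in ambient CO2 and from 74.5 to 5.0 in high CO2. Signals in low light were 247.0 and 394.1, above all others, so the gene was near the bottom of the array's range in high light only. The log2 difference was -4.17 ± 0.36 (adjusted p = 0.0122), but -2.48 with a pseudocount of 16, so its size rests on how the low signals are treated. AT1G13650 went from 255.9 to 28.0 and from 108.5 to 10.7 (log2 -3.27 ± 0.20, adjusted p = 0.00379). Both of its high-light signals were under 30, and the difference was -2.42 with a pseudocount of 16. AT5G48490, bright on all arrays, went from 1338.1 to 348.1 and from 901.3 to 270.0 (log2 -1.84 ± 0.13, adjusted p = 0.00752). Of the 24 genes named by the rule, AT1G13650 and AT5G48490 still passed without the medium-light ambient array, both at an adjusted p of 0.0485, and AT2G20670 did not (adjusted p = 0.0897). With the high-light high-CO2 array left out all 24 passed, and 22 passed when that array was placed in ambient CO2 by its atmosphere entry.

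AT3G21670, which encodes NPF6.4, a member of the nitrate and peptide transporter family, fell 4.93-fold. It read 477.6 in medium and 86.2 in high light in ambient CO2, then 162.0 and 36.9 in high CO2. The pairs did not overlap, and within each light level the signal was lower in high CO2. Low light gave 519.4 and 297.8. The log2 difference was -2.30 ± 0.19 (adjusted p = 0.0122), and -2.03 without the medium-light ambient array (adjusted p = 0.0897). It was the one gene of 12 written for nitrate uptake and nitrogen assimilation that could be analysed under the annotation.

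EXPA8, an expansin that loosens the cell wall during growth, read 319.3 and 149.4 in ambient CO2, then 297.3 and 114.6 in high CO2. Low light gave 609.8 and 747.8, so the high-light arrays were the lowest of the 6 and the low-light arrays the highest. It fell 2.35-fold (log2 -1.24 ± 0.18, adjusted p = 0.0316). MSRB6, which repairs oxidised methionine, read 290.3 and 109.0, then 239.1 and 121.2, with low light at 515.9 and 585.9 (log2 -1.20 ± 0.16, adjusted p = 0.0274). Its order over the light levels was the same as that of EXPA8. AT1G49500 read 345.6 and 77.4, then 126.6 and 48.3, against 936.3 and 862.7 in low light (log2 -1.77 ± 0.28, adjusted p = 0.0391). The other falls named by the rule, AT1G66760, AT1G60590, AT3G01060, AT5G35970 and AT1G76110, had log2 differences between -1.51 and -1.20. UGT74D1, a glucosyltransferase that acts on auxins, was the one further gene with a symbol that fell, chosen after its values were seen, from 125.5 to 65.8 and from 87.2 to 42.4 (log2 -0.99 ± 0.16, adjusted p = 0.0404).

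**Figure D2:**
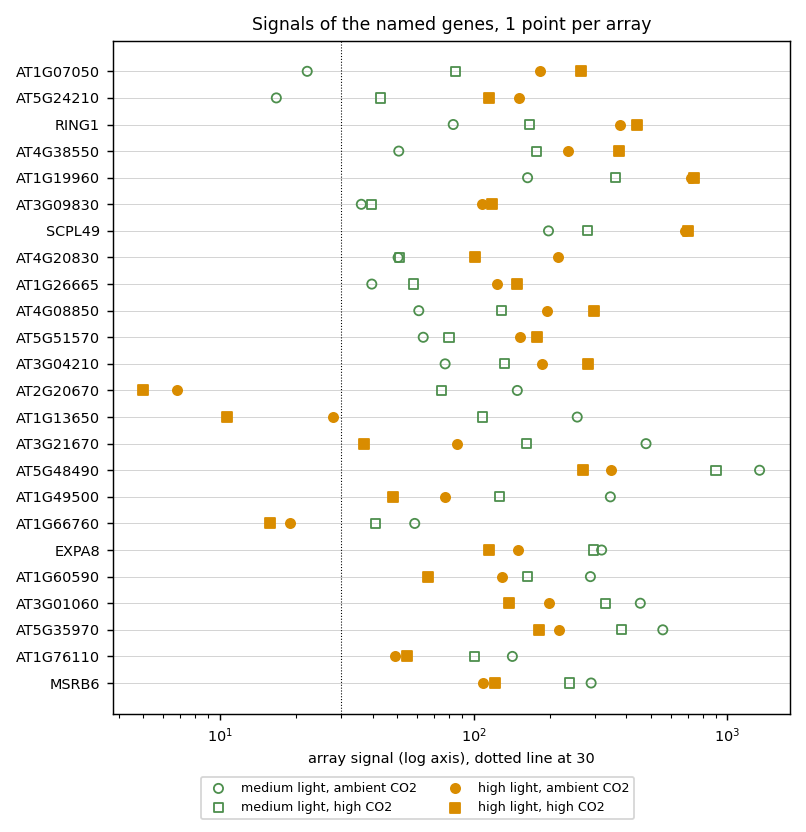
Signals on the 4 arrays (log axis) of the 12 rises and 12 falls named by the rule, with open symbols for medium and filled symbols for high light, circles for ambient and squares for high CO2, and a dotted line at a signal of 30. In every row both filled symbols lie on one side of both open symbols, to the right in the 12 upper rows from AT1G07050 to AT3G04210 and to the left in the 12 lower rows from AT2G20670 to MSRB6.

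Of the probe sets that passed, the largest rises were in some with no gene name here. Probe set 245250_at read 2.4 and 313.5 in ambient CO2, then 3.5 and 32.2 in high CO2 (log2 5.12 ± 0.81, adjusted p = 0.0392), 267364_at read 11.0 and 154.2, then 57.1 and 246.9 (2.96 ± 0.36), and 248794_at read 18.3 and 169.6, then 20.3 and 90.3 (2.68 ± 0.37). All 3 were under 30 on at least 1 medium-light array. Of the falls, 260221_at was bright, going from 592.0 to 136.5 and from 337.6 to 68.7 (log2 -2.21 ± 0.25, adjusted p = 0.0201). The other unnamed falls were 266720_s_at (-2.52 ± 0.40) and 263252_at (-1.89 ± 0.20).

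The gene lists cover pathways that light is known to act on, other pathways, cell type markers and reference genes. They were chosen with earlier results of these data known, so their counts beside the shares over all probe sets are descriptive only. A tested member was found for 22 lists, with 48 tested genes in all, because much of the array is unnamed in this annotation. NPF6.4 and EXPA8 passed, so 2 of 48 did, against 0.993% of all probe sets. With the high-light high-CO2 array left out 16 passed, against 6.73% of all probe sets in that fit. With the medium-light high-CO2 array left out 7 did, against 2.83%. Without the medium-light ambient array 0 passed, with 9 at an unadjusted p under 0.05, against 0.0301%, and without the high-light ambient array 4 passed, against 1.28%. In the fit with all arrays 17.2% of all probe sets had an unadjusted p under 0.05.

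Genes of shade and auxin growth had a median log2 difference of -0.77 over 4 tested genes, against -0.02 over all probe sets, with 1 passing (EXPA8). HAT2, a homeobox factor induced by shade, read 62.8 and 40.4 in ambient CO2, then 99.6 and 56.8 in high CO2, with a log2 difference of -0.72 ± 0.20 (adjusted p = 0.138). IAA29, a repressor of auxin response, read 73.6 and 42.0, then 93.5 and 52.2, with a difference of -0.83 ± 0.16 (adjusted p = 0.0619, or 0.0434 when the high-light high-CO2 array was left out). In both genes the high-light signals lay below the medium-light ones and below those in low light. YUC2, an enzyme of auxin synthesis, differed little, with signals between 57.4 and 69.8 (log2 0.05 ± 0.17).

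Antenna genes of the CP29 type, which links the outer antenna to photosystem II, went in different directions. LHCB4.3, the form known from strong light, read 462.8 and 714.6 in ambient CO2, then 399.5 and 707.3 in high CO2, against 129.8 and 111.1 in low light. High light was above medium light at both CO2 levels, with a log2 difference of 0.73 ± 0.13 that just missed the threshold (adjusted p = 0.0578, and 0.0437 with a robust prior). The common forms LHCB4.1 and LHCB4.2 were among the brightest genes, at 4227.8 to 5903.4 and 3041.6 to 3826.5, and had log2 differences of -0.31 ± 0.10 (adjusted p = 0.168) and -0.28 ± 0.10 (adjusted p = 0.216). Their high-light signals lay below their medium-light signals without overlap, while 46.7% of all probe sets had no overlap in either direction. Over the alternative fits the differences shrank to as little as -0.02 for LHCB4.1 and -0.07 for LHCB4.2.

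For carbon fixation, 3 genes of the Calvin-Benson cycle were tested and 0 passed in limma, with 3 at an unadjusted p under 0.05 (17.2% of all probe sets were). RCA, the activase of Rubisco, read 4532.6 and 3608.0 in ambient CO2, then 4800.1 and 3883.2 in high CO2 (log2 -0.32 ± 0.10, adjusted p = 0.184). SBPASE, sedoheptulose bisphosphatase, read 2907.7 and 2036.2, then 2543.9 and 2156.2 (-0.38 ± 0.11, adjusted p = 0.159). PRK, phosphoribulokinase, differed by -0.28 ± 0.12 (adjusted p = 0.29). Over the alternative fits the differences shrank to as little as -0.08 for RCA, -0.17 for SBPASE and -0.05 for PRK. Signals in high light were the lower ones at each CO2 level for all 3 genes, and the median difference was -0.48 in ambient and -0.24 in high CO2. HPR1, the hydroxypyruvate reductase of photorespiration, read 2157.2 and 1504.6, then 1687.7 and 1453.9, with the difference again smaller in high CO2 (log2 -0.37 ± 0.12, adjusted p = 0.187). The difference between the CO2 levels did not pass for any of these genes (adjusted p from 0.638 to 0.988).

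The pigment genes had higher signals in high light at both CO2 levels, though 0 of 4 passed in limma, with 3 at an unadjusted p under 0.05 (17.2% of all probe sets were). UF3GT, which adds xylose to anthocyanins, read 34.3 in medium and 168.9 in high light in ambient CO2, then 31.5 and 47.7 in high CO2. DFR, the reductase at the entry to anthocyanins, read 89.7 and 196.6, then 63.5 and 68.3. The high-light ambient array stood above the other 3 for both. UGT78D2, a flavonoid glucosyltransferase, read 87.1 and 155.0, then 85.8 and 106.4, and 5MAT, an anthocyanin malonyltransferase, read 19.0 and 66.6, then 14.8 and 29.6, partly under a signal of 30. The median log2 difference over the 4 genes was 1.47 in ambient and 0.45 in high CO2. The adjusted p was 0.137 for UF3GT, 0.32 for DFR, 0.174 for UGT78D2 and 0.153 for 5MAT. Without the high-light high-CO2 array UF3GT (log2 2.27, adjusted p = 0.000261) and DFR (1.17, adjusted p = 0.007) passed, while UGT78D2 (adjusted p = 0.0608) and 5MAT (0.0703) did not. With the high-light ambient array left out instead, DFR differed by 0.07 (adjusted p = 0.958) and UF3GT by 0.63 (adjusted p = 0.552).

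PWD, which phosphorylates starch granules so that they can be broken down, read 287.1 and 707.9 in ambient CO2, then 512.1 and 765.9 in high CO2. The high-light arrays were above the medium-light and low-light arrays, with a log2 difference of 0.94 ± 0.18 (adjusted p = 0.0613, or 0.00146 when the high-light high-CO2 array was left out). DPE1, which rearranges the sugar chains released from starch, read 212.2 and 426.4, then 327.8 and 405.8 (log2 0.66 ± 0.18, adjusted p = 0.138, and 0.0178 without that array). Both genes had their lowest signal on the medium-light ambient array. APL3, a subunit of the enzyme that makes the starch precursor, and SBE2.2, a branching enzyme, differed by 0.36 ± 0.31 and -0.20 ± 0.16. GI, a protein of the circadian clock, had the pattern of PWD, with 188.3 and 485.2 in ambient and 398.3 and 502.6 in high CO2 (log2 0.85 ± 0.23, adjusted p = 0.123, or 0.00195 when the high-light high-CO2 array was left out). With the high-light ambient array left out, PWD, DPE1 and GI differed by 0.69, 0.43 and 0.48 (adjusted p = 0.13, 0.454 and 0.401). The sources used here do not give the hour of harvest, and its part in these values was not tested.

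**Figure D3:**
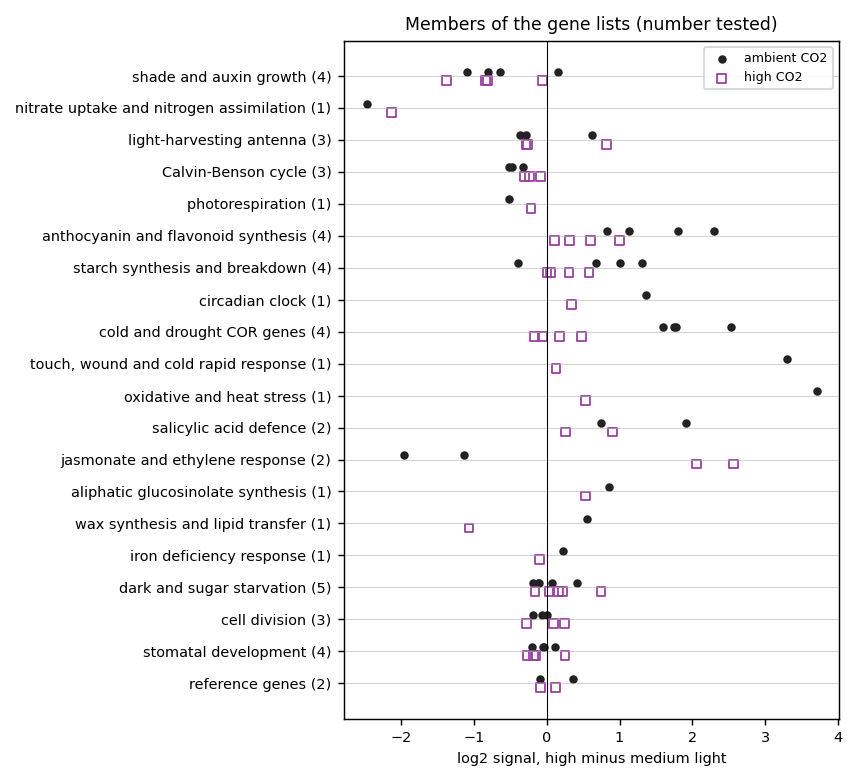
Log2 difference between high and medium light for each tested member of 20 gene lists, with the number tested in brackets, as filled circles in ambient CO2 and open squares in high CO2. The 4 COR genes lie between 1.60 and 2.53 in ambient CO2 and between -0.17 and 0.47 in high CO2, and the 2 defensin genes of the jasmonate list lie below 0 in ambient and above 2 in high CO2.

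Differences between high and medium light were more numerous in ambient CO2. There 596 probe sets (4.48%) were at least 2-fold higher and 278 (2.09%) at least 2-fold lower in high light, with 1 array on each side and no test. In high CO2 the counts were 155 (1.17%) and 122 (0.918%). Across the 13295 probe sets the 2 differences, which share no array, correlated with r = 0.411, and genes are not independent replicates. At least 2-fold in the same direction at both levels were 134 probe sets, and 6 were in opposite directions. Both ambient arrays stood apart from the rest: 180 probe sets were at least 2-fold higher on the high-light ambient array than on each of the other 3, and 144 were at least 2-fold lower on the medium-light ambient array than on each of the others. The medium-light high-CO2 array stood apart in 2 and 9 probe sets, above and below. With 1 array each, plant, harvest and array cannot be told apart from the treatment.

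**Figure D4:**
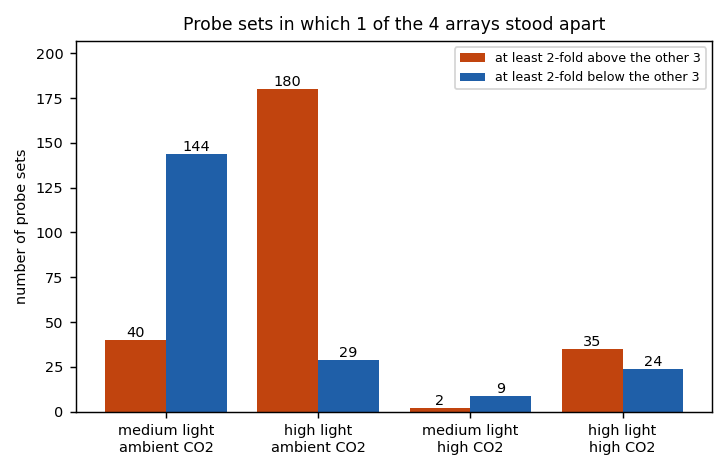
Number of probe sets, of 13295, in which 1 of the 4 arrays was at least 2-fold above (orange) or below (blue) each of the other 3. The high-light ambient array stood above in 180 and the medium-light ambient array below in 144, while the medium-light high-CO2 array stood above in 2 and below in 9.

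Whether the light difference itself depended on CO2 was tested as the change in high CO2 minus the change in ambient CO2, in limma with 1 residual degree of freedom. It places the high-light high-CO2 array by its title. It passed in 160 probe sets (1.2%). In 126 (0.948%) the light difference was lower in high CO2, and in 34 (0.256%) it was higher, and 76 genes carry a name here. With each array scaled to the same median signal, 0 passed, with 1164 at an unadjusted p under 0.05 against 1360 as reported. With quantile normalization 14 passed. The prior degrees of freedom of the spread were 6.05 and 7.54 in these 2 fits, against 16.6 as reported. The calls below thus depend on the processing and on the spread estimated in each fit, and the cause was not tested. Without the trend of spread on signal 4 passed, and no test was possible with an array left out.

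STZ, EXO, AT4G27280, AT4G29780 and CML38 were high on the high-light ambient array alone. STZ, the zinc finger repressor also called ZAT10, read 58.6 in medium and 764.3 in high light in ambient CO2, then 53.0 and 76.6 in high CO2. The log2 difference between the CO2 levels was -3.17 ± 0.72 (adjusted p = 0.035). EXO, a cell wall protein of growth control that responds to brassinosteroid, read 161.8 and 1594.5, then 136.2 and 148.9 (-3.17 ± 0.56, adjusted p = 0.00644). In both genes 1 array held nearly the whole light difference. AT4G27280 read 133.5 and 2130.9, then 97.1 and 152.2 (-3.35 ± 0.76, adjusted p = 0.035), and AT4G29780 read 65.4 and 792.0, then 35.7 and 33.9 (-3.67 ± 0.85, adjusted p = 0.0403). CML38, a calmodulin-like calcium sensor, read 17.6 and 227.5, then 24 and 16.8 (-4.21 ± 0.98, adjusted p = 0.0416), with the other 3 arrays under a signal of 30. With a robust prior none of these 5 genes passed for the difference between CO2 levels (adjusted p from 0.837 to 0.888). None passed for the light difference over both CO2 levels either. For AT4G27280, AT4G29780 and CML38 this difference was not examined with an array left out. STZ (log2 3.89, adjusted p = 1.96e-07) and EXO (3.34, adjusted p = 1.17e-07) passed for it with the high-light high-CO2 array left out, and differed by 0.35 (adjusted p = 0.7) and 0.09 (adjusted p = 0.93) with the high-light ambient array left out.

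The cold and drought genes of the COR group, which protect membranes and proteins in dehydrated cells, had log2 light differences of 1.60 to 2.53 in ambient CO2 and of -0.17 to 0.47 in high CO2. COR15A, a chloroplast protein, read 440.4 in medium and 2540.3 in high light in ambient CO2, then 1123.1 and 1271.9 in high CO2. The low-light arrays, at 1050.0 and 1329.4, were close to the high-CO2 pair, and the medium-light ambient array was the lowest and the high-light ambient array the highest of the 6. The difference between the CO2 levels was -2.35 ± 0.24 on the log2 scale (adjusted p = 8.18e-05). COR15B read 521.3 and 1785.0, then 1086.2 and 1509.5 (-1.30 ± 0.24, adjusted p = 0.00835). COR47 read 254.4 and 770.6, then 394.9 and 380.9 (-1.65 ± 0.38, adjusted p = 0.0362), and LTI30 read 64.9 and 217.1, then 108.8 and 96.6 (-1.91 ± 0.34, adjusted p = 0.00627), both dehydrins. For COR47 the low-light high-CO2 array, at 1028.0, was the highest of the 6. All 4 tested COR genes passed, against 1.2% of all probe sets, though this list was chosen with earlier results of these data known. With a robust prior COR47 did not pass (adjusted p = 0.792). The median log2 light difference of the 4 genes was 1.76 in ambient and 0.06 in high CO2. For the light difference over both CO2 levels none of the 4 passed, while all 4 did when the high-light high-CO2 array was left out, at log2 values of 2.28 for COR15A, 1.61 for COR15B, 1.64 for COR47 and 1.59 for LTI30. With the high-light ambient array left out the values were 0.43, 0.64, -0.10 and -0.02, and none passed (adjusted p from 0.195 to 0.984). COR27, a cold-regulated gene that also acts in light signalling, was high in high light at both CO2 levels, with 2.0 and 152.4, then 28.6 and 237.0. Its medium-light signals were under 30, and it passed neither for light (log2 4.65 ± 0.84, adjusted p = 0.0555) nor for the difference between CO2 levels (-3.20 ± 1.08, adjusted p = 0.218). Among genes with a signal of at least 200 on 1 of the 4 arrays, the largest such difference was in AT3G60420, with 5.2 and 218.1, then 78.0 and 166.4 (-4.30 ± 0.47, adjusted p = 0.000139), and it was -2.51 with a pseudocount of 16.

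The plant defensins, antifungal peptides known as markers of jasmonate and ethylene signalling, went the other way. PDF1.2 read 74.1 in medium and 33.8 in high light in ambient CO2, but 82.0 and 483.9 in high CO2. PDF1.2b read 147.3 and 38.1, then 185.4 and 770.0. For both genes the high-light high-CO2 array was the highest of the 6 and the high-light ambient array the lowest of the 4, and low light was below all of these, between 8.6 and 26.1. The difference between CO2 levels was 3.69 ± 0.53 (adjusted p = 0.00169) for PDF1.2 and 4.01 ± 0.61 (adjusted p = 0.0026, but 0.794 with a robust prior) for PDF1.2b. These are near-identical copies, and the PDF1.2b probe set is of a type that can bind related transcripts, so their signals are not independent. The light difference over both CO2 levels was 0.71 ± 0.73 and 0.05 ± 0.83. For PDF1.2b it became -1.90 when the high-light high-CO2 array was left out (adjusted p = 0.000349) and 2.00 when the high-light ambient array was (adjusted p = 0.000468), and for PDF1.2 it became -0.92 (adjusted p = 0.263) and 2.35 (adjusted p = 0.00296) in these cases.

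Of the other genes with a greater difference in high CO2, AT3G16530 read 95.1 and 39.8, then 93.5 and 258.4, with low light at 104.8 and 316.8, the latter the highest of the 6 (2.72 ± 0.33, adjusted p = 0.000261). AT3G16670 was bright and went from 888.8 to 510.5 in ambient and from 785.7 to 1369.1 in high CO2 (1.60 ± 0.26, adjusted p = 0.00358). In AT5G19120 and AT1G23390 the light difference was negative in ambient CO2 and closer to 0 in high CO2. AT5G19120 read 202.8 and 42.1, then 66.7 and 63.0 (2.19 ± 0.46, adjusted p = 0.0219, but 0.724 with a robust prior). AT1G23390 read 355.3 and 78.6, then 206.0 and 137.3, against 1007.3 and 1183.2 in low light (1.59 ± 0.28, adjusted p = 0.00615).

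**Figure D5:**
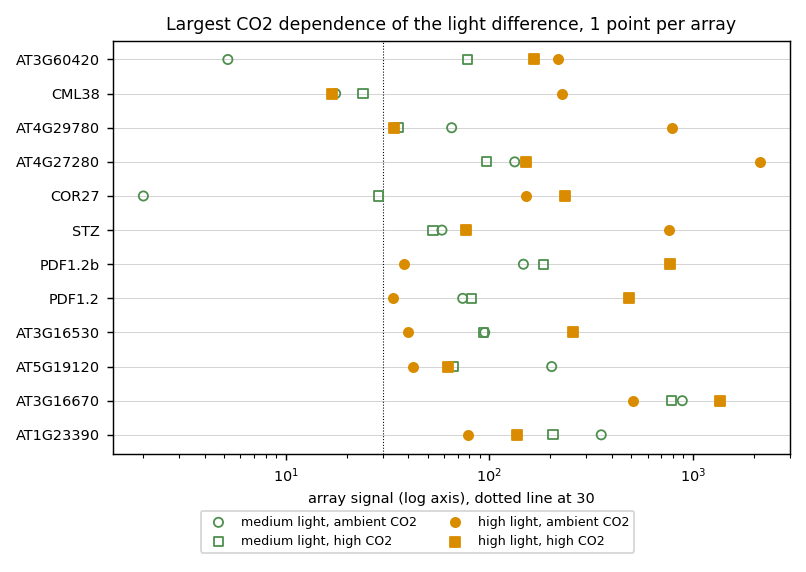
Signals on the 4 arrays (log axis) of the 12 genes, bright enough to be named, with the largest difference between CO2 levels in the change from medium to high light, with symbols for light and CO2 as in the key and a dotted line at a signal of 30. In CML38, AT4G29780, AT4G27280 and STZ the filled circle (high light, ambient CO2) lies far to the right of the other 3 symbols, and in PDF1.2, PDF1.2b and AT3G16530 the filled square (high light, high CO2) does.

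The genes of the stomatal lineage, which the series title asks about in relation to CO2, had small differences between high and medium light, and 0 of 4 tested passed or had an unadjusted p under 0.05 in limma. SPCH, which starts the lineage, read 70.1 and 67.7 in ambient CO2, then 52.6 and 47.4 in high CO2 (log2 -0.10 ± 0.49). FAMA, which acts in the last step to guard cells, read 82.9 and 80.6, then 66.8 and 79.6 (0.11 ± 0.18). STOMAGEN, a peptide from the mesophyll that promotes stomata, differed by -0.23 ± 0.14, and AGL16, which acts in the lineage's later divisions, by -0.03 ± 0.18. MUTE, at 13.7 to 17.2, lay below the signal filter. The error of SPCH was the largest of the 4, so a modest change of it was not detectable here.

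Cell division and starvation genes were as flat. AUR1, AUR2 and MCM7 of the cell division list had log2 differences of 0.05 ± 0.17, 0.09 ± 0.18 and -0.23 ± 0.14. The 5 tested genes of the dark and sugar starvation list ranged from -0.14 ± 0.18 (MCCA) to 0.32 ± 0.27 (IVD). Of both lists 0 passed in limma, and 0 had an unadjusted p under 0.05. BCAT4, the first enzyme of aliphatic glucosinolate synthesis, read 158.3 and 287.0, then 174.7 and 253.6 (0.70 ± 0.54, adjusted p = 0.563). WSD1, a wax ester synthase, differed by 0.55 in ambient and by -1.07 in high CO2 (-0.26 ± 0.36, and 0.36 with the high-light high-CO2 array left out), and PYE, a regulator of iron homeostasis, by 0.06 ± 0.21. WRKY53, a regulator of leaf senescence and defence, read 23.6 and 88.9, then 24.8 and 46.4, and its log2 difference of 1.41 ± 0.36 had an adjusted p of 0.118, or 0.00328 when the high-light high-CO2 array was left out (2.03) and 0.487 when the high-light ambient array was (0.79). SAG101, a partner in immune signalling, lay just above the filter with a mean signal of 30.1 and differed by 0.50 ± 0.30, while FHL of the shade list lay just below it at 28.7. The reference genes GAPC2 and UBC21 differed by -0.09 ± 0.10 (0.13 with quantile normalization) and 0.24 ± 0.14.

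The leaf origin of the RNA was checked with marker lists. All 5 mesophyll markers that could be analysed, RCA, LHCB4.1, LHCB4.2, PRK and SBPASE, had signals of 2036.2 or more on the 4 arrays. All 5 were lower in high light at both CO2 levels, and 52.7% of all probe sets were lower in the mean light difference. These are the antenna and Calvin-Benson genes given above, so their values add no further evidence. In limma 0 passed and 5 had an unadjusted p under 0.05, as did 17.2% of all probe sets. Over the alternative fits the 5 log2 differences shrank to values between -0.17 (SBPASE) and -0.02 (LHCB4.1). PYK10, a root marker, read 18.1 to 29.9, the senescence marker SAG29 2.8 to 13.7 and the meristem marker CLV3 1.4 to 8.6, all below the filter. Markers of flower and pollen, seed, trichomes and vascular tissue were not analysed here for want of a named probe set, nor were the genes of photoprotection and the beta carbonic anhydrases.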

How the data were processed

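Col-0 rosette RNA, labelled with biotin, was measured on 6 ATH1 arrays. The deposited values are signal intensity on a linear scale, made by the authors with MAS5 per the submitters' processing notes, which give no version; all arrays had a 2% trimmed mean of 100, so they had been scaled before deposit. No detection calls were used.

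Signals below 0.1 were raised to 0.1 before log2 was taken. Probe sets other than controls with a mean signal of 30 or more over the 4 high-light and medium-light arrays were kept. A model with light as a factor and CO2 as a term was fitted to all 6 arrays in limma 3.58.1 (R 4.3.3; eBayes with an intensity trend), with 2 residual degrees of freedom and a mean prior of 5.65. The CO2 dependence was the product of CO2 and a high-against-medium score, with 1 residual degree of freedom and a prior of 16.6. The model without the product was tested on simulated data, and the fit of CO2 dependence was not. P-values were adjusted by Benjamini-Hochberg over all tested probe sets; they measure only the spread of these arrays around the model, since every combination is 1 array and nothing says that samples came from separate plantings. The number of arrays limits the precision. Figures were drawn with matplotlib 3.10.9.

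Annotation listed 14016 probe sets, 13513 with 1 gene, of which 13436 matched the TAIR10.1 gene table, which supplied names only. The comparison and the 31 gene lists (367 members) were chosen with earlier results of these data known; 14 members whose symbol is not at the written locus were left out and 63 had a named probe set. Plastid genes and symbol families were grouped after the files were read. Named genes were up to 12 rises and 12 falls past the threshold, taken by size of change and with 1 direction at both CO2 levels, up to 6 list members by smallest p, 3 unnamed probe sets each way, and, for the CO2 dependence, the 6 largest differences each way among genes with a signal of at least 200 on 1 array.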

Additional observations from a re-analysis of the deposited data

Results flagged for a closer look

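The light difference of 16 named genes differed between the 2 CO2 levels in the test of that difference itself, given as the log2 change in high CO2 minus that in ambient CO2. It was lower in high CO2 for AT3G60420 (-4.30), CML38 (-4.21), AT4G29780 (-3.67), AT4G27280 (-3.35), STZ (-3.17), EXO (-3.17), COR15A (-2.35), LTI30 (-1.91), COR47 (-1.65) and COR15B (-1.30). It was higher in high CO2 for PDF1.2b (4.01), PDF1.2 (3.69), AT3G16530 (2.72), AT5G19120 (2.19), AT3G16670 (1.60) and AT1G23390 (1.59). All of these rest on 1 array for each combination and on 1 residual degree of freedom. They also place the high-light high-CO2 array by its title, against its atmosphere entry of normal air. With each array scaled to the same median the lowest adjusted p of the 12 genes named for it was 0.0738. With quantile normalization only AT3G60420, COR15A and AT3G16530 of the genes above passed. With a robust prior CML38, AT4G29780, AT4G27280, STZ, EXO, COR47, PDF1.2b and AT5G19120 did not pass.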

How the results depend on the processing

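All 132 calls had the same sign at both CO2 levels, and some alternatives change only the filter or the estimate of spread. That the calls kept their sign under each alternative that tested them was therefore largely fixed in advance. Their count of 132 became 9 with no filter, 0 with no intensity trend (1946 at an unadjusted p under 0.05), 0 with no CO2 term (1935) and 229 with CO2 from the atmosphere entry, and leaving out 1 array gave 4 to 895. Of the 24 named genes, 24 passed with equal medians and a pseudocount, 20 with quantile normalization and 5 with no filter. The 160 calls of CO2 dependence became 14 with quantile normalization, 0 with equal medians (1164), 2 with no filter, 276 with a pseudocount and 4 with no intensity trend, and 5 of the 12 genes named for it passed with a robust prior, against 11 as reported. The gene list count of 2 became 1 with no filter, 0 with no intensity trend (15) or no CO2 term (20), 4 with a robust prior and 5 with the atmosphere entry, and leaving out 1 array gave 0 to 16. For PDF1.2b the light difference of 0.05 ranged from -1.90, reversed, to 2.00 with 1 array left out, and that of PDF1.2 from -0.92 to 2.35. The causes were not tested. The fit pairs arrays by CO2 level, and the setting with no CO2 term is the unpaired one. By replicate number, no paired analysis was possible because every label carries replicate 1. Low signals, of which 5 of the 24 named genes have at least 1 under 30, limit the precision of fold sizes.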

Other observations

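The plastid genome was represented by 68 tested genes, of which 0 passed in limma for high against medium light and 15 (22.1%) had an unadjusted p under 0.05, against 17.2% of all probe sets. In high light 54 (79.4%) were lower and 14 higher, against 52.7% lower over all probe sets, with a median log2 difference of -0.20, against -0.02 over all probe sets. The median was -0.28 in ambient and -0.08 in high CO2. For psbF, a small subunit of the photosystem II cytochrome, the signals were 2036.7 in medium and 1644.6 in high light in ambient CO2, then 2004.9 and 1464.8 in high CO2 (log2 -0.38 ± 0.11, adjusted p = 0.148). High light was lower at both CO2 levels. For atpB, of the ATP synthase, they were 5362.9 and 4235.3, then 6110.3 and 5044.4 (-0.31 ± 0.10, adjusted p = 0.195). The exception in size was petG, of the cytochrome b6f complex, at 20.9 and 171.5, then 47.8 and 67.5. Its light difference was lower in high CO2 (-2.54 ± 0.48, adjusted p = 0.00964). The medium-light ambient signal of petG was under 30, so this size is not firm. With equal medians 0 probe sets passed for the difference between CO2 levels. For rpoC2, of the plastid RNA polymerase, the light difference was higher in high CO2 (1.18 ± 0.27, adjusted p = 0.0337), with 631.9 and 311.4, then 375.5 and 417.9. How plastid transcripts without a poly(A) tail were primed is not stated in the labels, and its part in these values was not tested.

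Among 21 families grouped by gene symbol, 3 had 1 gene each that passed. Over all tested genes 0.604% passed, which is a share of genes and not of families. In the serine carboxypeptidase-like family 1 of 13 rose (SCPL49), and SCPL35 came close, with 316.4 and 865.3 in ambient CO2, then 623.6 and 1016.9 in high CO2 against 177.8 and 215.9 in low light (log2 1.08 ± 0.19, adjusted p = 0.0555). Of 20 UDP-glycosyltransferases 1 fell (UGT74D1), and of 6 alpha-expansins 1 fell (EXPA8). The family medians were 0.27, 0.00 and -0.02. SWEET2, a sugar transporter of the vacuole, read 90.9 and 42.5, then 61.9 and 33.4, below its low-light signals of 100.4 and 104.1 (-0.99 ± 0.20, adjusted p = 0.0695), while the median of the 7 SWEET genes was -0.18.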
